A study of Mus musculus with 6 samples.

Results

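PAC3 and PAC2 were the cells of the mouse mammary tumour line PB3 after 3 and after 2 rounds of paclitaxel. Both were held in 1 run 2 library together with PAC1, the cells after 1 round, and were told apart by hashtag oligos, short DNA tags put on each condition before the cells were mixed and captured. Members were all rows of the authors' cell table with those condition names: 2792 PAC3 cells and 848 PAC2 cells, 3640 of the 6568 cells of the library and 7.03% of the 51785 cells and nuclei of the series. Per the labels, the first round was 100 nM paclitaxel for 72 h with 48 h before the next, and later rounds were at 250 nM. PAC3 cells, and PAC1 cells after their only round, were allowed to recover at the end, for a time the labels do not give. No recovery is named after the last PAC2 round. Number of rounds, cumulative dose, final recovery and culture time therefore differ together and cannot be told apart. Every cell of the library had been exposed to paclitaxel, and the library has no untreated cells. Each condition is 1 hashed pool, so no test was made. Intervals in parentheses are exact 95% Clopper-Pearson intervals on cells, and intervals of differences and ratios likewise reflect counting error alone; variation between cultures was not measured.

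Paclitaxel stabilises microtubules, so dividing cells are held in mitosis, and some die while others leave mitosis without dividing properly. Cells that persist through one exposure may differ in state, in lineage or in both. A lentiviral lineage barcode integrates into the genome and is passed to daughter cells, so cells with the same barcode in both conditions are read as descendants of a common barcoded ancestor or of ancestors that took up the same barcode. Pseudotime orders cells by their distance along a graph through their expression profiles, here from untreated cells as the root, and is not a measure of hours. No gene expression matrix was analysed, so no gene or cell type is named and the clusters keep the authors' numbers.

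The 4 barcodes that held at least 5% of barcoded cells in either condition are shown because the lineage results turn on them. The first 2 were the most frequent barcodes of both conditions, the next held a like share of both, and the last was frequent in PAC2 only. Each reads 5′ to 3′, with the variable stretches of 14 and 30 bases in capitals and the shared linker in lower case.
bc14-76-bc30-49517: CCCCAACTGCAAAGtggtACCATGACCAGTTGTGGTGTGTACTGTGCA
bc14-4-bc30-67693: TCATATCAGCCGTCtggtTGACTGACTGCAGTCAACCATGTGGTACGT
bc14-6-bc30-93034: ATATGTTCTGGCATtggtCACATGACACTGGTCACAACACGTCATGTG
bc14-18-bc30-67263: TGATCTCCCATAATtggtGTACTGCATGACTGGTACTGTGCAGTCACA
Among the 253 pairs of the 23 barcodes named here, the closest pair differed at 14 of 48 bases. That pair was bc14-18-bc30-67263 and bc14-18-bc30-28871, which share the first stretch. The hashtags were TCACAGCA for PAC3 and AGAGAGAG for PAC2.

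Depth and barcode capture differed between the conditions. The median was 12776 UMIs (counted RNA molecules) per cell in PAC3 and 16775 in PAC2, and 3293 genes in PAC3 and 3976 in PAC2. A single barcode was called in 2286 PAC3 cells, 81.9% (80.4 to 83.3), and in 569 PAC2 cells, 67.1% (63.8 to 70.3); these are the barcoded cells. More than 1 barcode was detected in 18.4% (17.0 to 19.9) of PAC3 cells and 31.25% (28.1 to 34.5) of PAC2 cells. Among the barcoded cells, more than 1 was detected in 12.1% in PAC3 and 22.1% in PAC2. The authors called 5.34% of PAC3 and 11.0% of PAC2 Doublet. All 3 hashtags were detected in every PAC3 and PAC2 cell, and the table holds their summed count only, so the assignment of a cell to its condition was not rechecked. The paclitaxel library shared 16 cell barcodes with the eribulin library of the same run, 6 of them in PAC3 cells and 1 in a PAC2 cell.

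The conditions had 1 large cluster in common and differed in the other. Cluster 9 held 38.3% (36.5 to 40.2) of PAC3 and 39.6% (36.3 to 43.0) of PAC2, a difference of -1.30 percentage points (-5.13 to 2.48). Cluster 2 held 1290 PAC3 cells, 46.2% (44.3 to 48.1), and 65 PAC2 cells, 7.67% (5.97 to 9.67). Cluster 7 held 26 PAC3 cells, 0.931% (0.609 to 1.36), and 334 PAC2 cells, 39.4% (36.1 to 42.8). The gap was 38.5 points (35.8 to 41.1) in cluster 2 and -38.5 points (-41.9 to -35.1) in cluster 7. Clusters 2, 7 and 9 together held 85.5% of PAC3 and 86.7% of PAC2. One lineage, bc14-76-bc30-49517, weighed on these shares. Among the barcoded cells of all other lineages, cluster 2 held 6.42% of PAC3 and 2.03% of PAC2, cluster 7 held 0.856% of PAC3 and 32.2% of PAC2, and cluster 9 held 73.6% of PAC3 and 52.9% of PAC2. In a window of UMI counts common to both conditions, where the median was 12883 UMIs in PAC3 and 14594 in PAC2, cluster 9 held 39.3% of PAC3 and 46.1% of PAC2.

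The smaller clusters moved less. Cluster 6 held 5.16% (4.37 to 6.04) of PAC3 and 3.18% (2.11 to 4.60) of PAC2, and cluster 8 held 4.15% (3.45 to 4.96) of PAC3 and 2.00% (1.17 to 3.19) of PAC2. Cluster 11 held 1 PAC3 cell and 16 PAC2 cells, and cluster 3 held 25 PAC3 cells and 0 of 848 PAC2 cells, so a share of up to 0.354% is allowed. Cluster 13 held 2.04% (1.55 to 2.64) of PAC3 and 4.48% (3.19 to 6.10) of PAC2. Its cells were shallow, with a median of 980 UMIs in PAC3 and 773 in PAC2. Their median mitochondrial share was 69.3% in PAC3 and 77.6% in PAC2. The part of each condition's cluster profile that coincided, the sum of the lower of both shares over all clusters, was 55.5%.

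**Figure D1:**
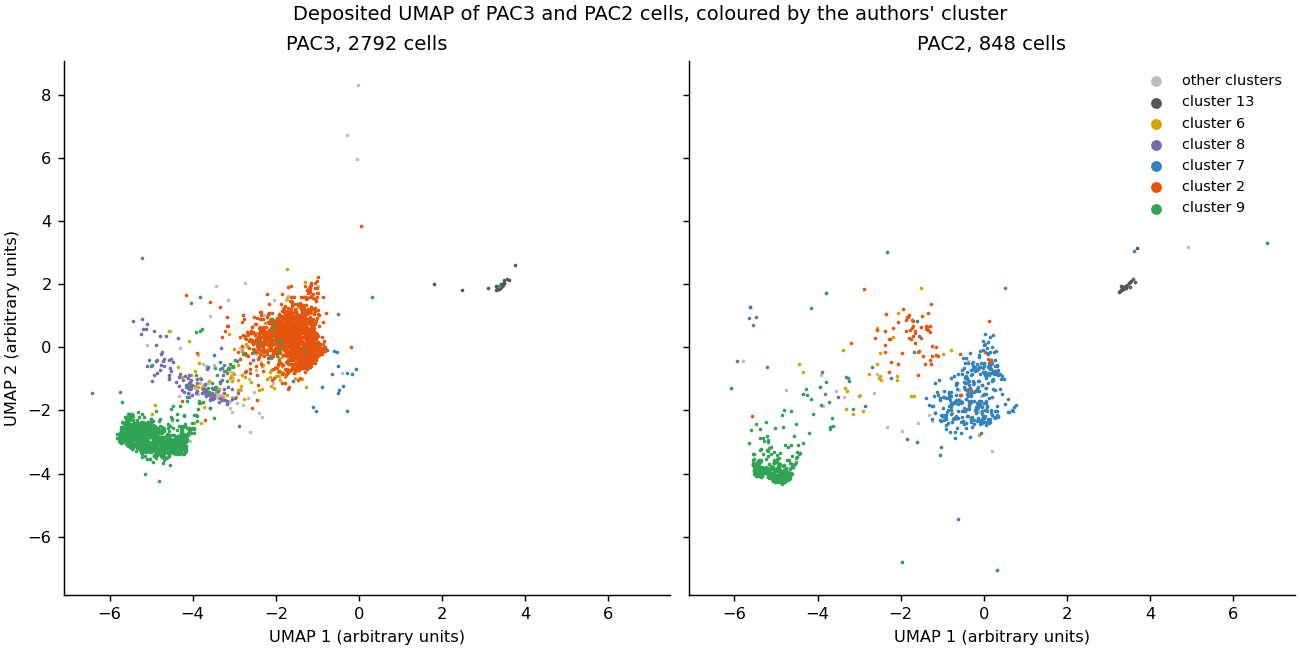
Deposited UMAP coordinates (arbitrary units) of 2792 PAC3 cells on the left and 848 PAC2 cells on the right, 1 point per cell, coloured by cluster. Cluster 2 is filled in PAC3 and sparse in PAC2, cluster 7 the other way round, and the cluster 9 cells lie higher on the second axis in PAC3 than in PAC2.

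**Figure D2:**
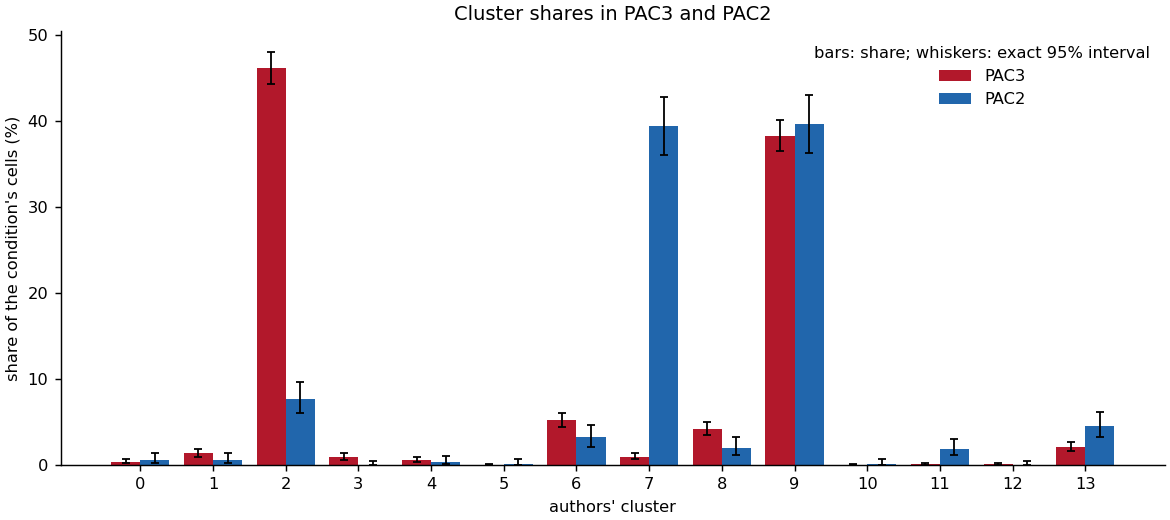
Share of each condition's cells (%) in each of the authors' clusters, PAC3 left of PAC2, with exact 95% intervals as whiskers. Cluster 9 holds 38.3% of PAC3 and 39.6% of PAC2, while clusters 2 and 7 exchange places as the other large cluster.

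Within cluster 9 the conditions were similar in share but not in position. The median second UMAP coordinate of cluster 9 cells was -2.85 in PAC3 and -3.93 in PAC2. Of the 30 nearest neighbours among the cluster's PAC3 and PAC2 cells, PAC2 cells made up 4.57% around PAC3 cells and 82.0% around PAC2 cells, where PAC2 was 23.9% of the pool. Cluster 2 had no such split: PAC2 cells made up 4.31% of the neighbours of PAC3 cells and 5.44% of those of PAC2 cells, with PAC2 at 4.80% of the pool. In cluster 7, PAC2 cells made up 82.9% of the neighbours of the 26 PAC3 cells and 94.8% of those of PAC2 cells, with PAC2 at 92.8% of the pool. Positions also differed in cluster 7, where the median second coordinate was -0.63 in PAC3 and -1.53 in PAC2 and PAC3 cells made up 17.1% of the neighbours of PAC3 cells, with a pool share of 7.22%. That difference rests on 26 PAC3 cells. In cluster 6 the median second coordinate was -0.35 in PAC3 and -0.92 in PAC2.

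PAC1 places the cluster 9 split among all 3 rounds. Cluster 9 held 662 PAC1 cells with a median second coordinate of -2.83, near that of PAC3. Around PAC1 cells of cluster 9, PAC3 cells made up 54.8% of the neighbours, with a pool share of 51.7%, and PAC2 cells 4.71%, with a pool share of 16.2%. Around PAC2 cells the neighbours were PAC2 cells in 78.3%, PAC3 cells in 11.2% and PAC1 cells in 10.6%. PAC2 was thus the condition that stood apart in this cluster, with PAC1 and PAC3 side by side. PAC1 and PAC3 are also the conditions for which the labels name a final recovery, and whether recovery plays a part was not tested.

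Median pseudotime was 21.6 in PAC3 (10th to 90th percentile 18.6 to 22.8) and 19.6 in PAC2 (13.4 to 23.9). PAC3 was the higher in 57.6% of pairs of 1 PAC3 and 1 PAC2 cell. The medians hide different shapes. Most PAC3 cells, 73.0% (71.3 to 74.6), lay from 20 to 23, where 9.08% (7.23 to 11.2) of PAC2 cells lay. PAC2 cells lay on both sides of that range, with 34.6% (31.4 to 37.9) from 13 to 15 and 36.0% (32.7 to 39.3) from 23 to 24. In PAC3 these ranges held 2.51% and 7.56%. The PAC2 median fell on the value shared by the cells of cluster 13, so it describes neither large PAC2 group. Without cluster 13, the medians were 21.6 in PAC3 and 18.4 in PAC2. Among barcoded cells without bc14-76-bc30-49517 they were 21.9 in PAC3 and 22.0 in PAC2, and PAC3 was the higher in 47.8% of pairs.

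**Figure D3:**
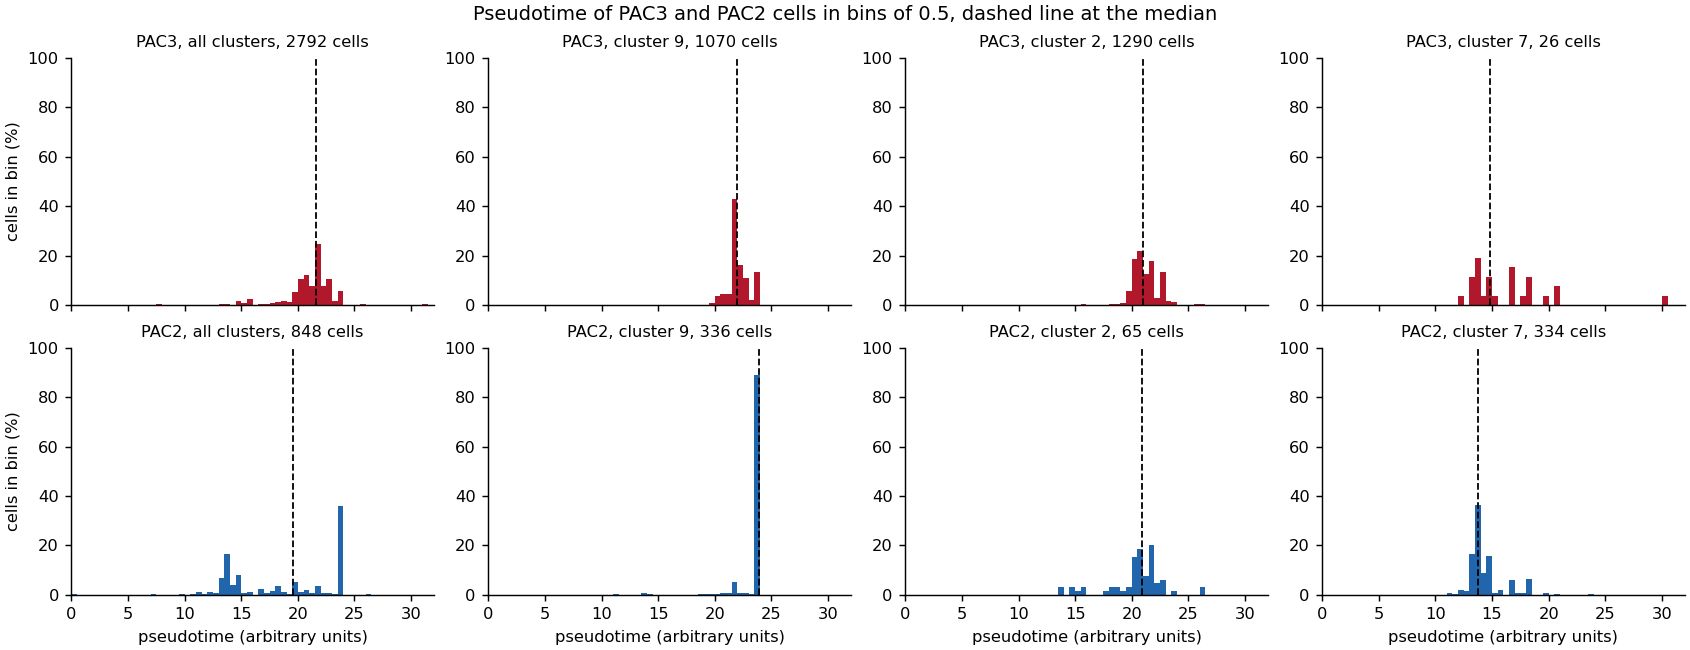
Pseudotime (arbitrary units) against the percent of cells per bin of 0.5, with PAC3 in the upper row and PAC2 in the lower row, for all cells and for clusters 9, 2 and 7; dashed lines are medians. PAC3 has 1 main range between 20 and 23, PAC2 has 2 groups on either side of it, and in cluster 9 the PAC2 median (23.9) lies above the PAC3 median (22.0).

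Inside cluster 9 the order was the reverse of the overall one, and in clusters 2, 6, 7 and 8 it was the same. In cluster 9, median pseudotime was 22.0 in PAC3 and 23.9 in PAC2, a difference of -1.90, and PAC3 was the higher in 10.2% of pairs. In cluster 2 the medians were 21.0 in PAC3 and 20.9 in PAC2, a difference of 0.13, and in cluster 7 they were 14.9 in PAC3 and 13.8 in PAC2. In clusters 6 and 8, PAC3 was higher by 1.01 and 0.62. The average over these 5 clusters, each weighted equally, was 19.2 in PAC3 and 19.2 in PAC2. The higher overall median of PAC3 was thus not matched inside cluster 9, where PAC3 was the lower.

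Many PAC2 cells shared 1 exact pseudotime value. To within 0.001, 295 PAC2 cells, 34.8% (31.6 to 38.1), had a pseudotime of 23.881, and 291 of them were in cluster 9. These 295 cells carried 31 different barcodes. In cluster 9, the value was held by 54 PAC3 cells, 5.05% (3.81 to 6.53), and by 291 PAC2 cells, 86.6% (82.5 to 90.1). PAC1 had it in 6.80% (5.00 to 8.99) of its cluster 9 cells. Cells projected to the same point of a trajectory graph receive the same pseudotime, so the tied cells have no order among themselves.

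The cluster 9 gap was as large within a common range of depth, which narrowed the difference in depth without removing it. In the common window of UMI counts, from 8015 to 24265, cluster 9 held 855 PAC3 cells with a median of 12831 UMIs and 246 PAC2 cells with a median of 14311. Their median pseudotime was 22.0 in PAC3 and 23.9 in PAC2, and the shared value was held by 5.50% (4.07 to 7.24) of the PAC3 and 89.0% (84.4 to 92.6) of the PAC2 cells. Over all clusters the window held 2177 PAC3 and 534 PAC2 cells, and there PAC3 was the higher in 52.1% of pairs.

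Cell cycle phases were set from the deposited scores, as G1 where neither score was above 0 and otherwise as the phase with the higher score. S made up 17.8% (16.4 to 19.3) of PAC3 and 19.0% (16.4 to 21.8) of PAC2. G2M made up 43.8% (42.0 to 45.7) of PAC3 and 41.4% (38.1 to 44.8) of PAC2, and G1 38.3% (36.5 to 40.2) of PAC3 and 39.6% (36.3 to 43.0) of PAC2. All 3 pairs of intervals overlapped. With a score threshold of 0.1 in place of 0, S made up 7.09% of PAC3 and 9.91% of PAC2, a difference of -2.81 points (-5.21 to -0.635). Within cluster 9, S made up 15.3% (13.2 to 17.6) of PAC3 and 15.8% (12.0 to 20.1) of PAC2. Cells with both scores above 0 were 3.83% (3.15 to 4.61) of PAC3 and 7.78% (6.07 to 9.80) of PAC2. The calls rest on scores alone and do not by themselves show cycling.

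The mitochondrial share of UMIs was slightly lower in PAC3, with medians of 2.60% in PAC3 and 2.88% in PAC2. Cluster 9 had medians of 2.24% in PAC3 and 2.55% in PAC2, and cluster 2 had 2.82% in PAC3 and 2.84% in PAC2. The few PAC3 cells of cluster 7 had 4.05%, against 3.33% in PAC2. In the common depth window the medians were 2.56% in PAC3 and 2.87% in PAC2. Depth followed the clusters in part: cluster 7 was the deepest large PAC2 cluster, with a median of 21086 UMIs in PAC2 and 14324 in PAC3, while cluster 2 had 13134 UMIs in PAC3 and 11969 in PAC2.

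Fewer lineages made up PAC3. Its 2286 barcoded cells carried 65 different barcodes, and the 569 of PAC2 carried 87. In equal draws of 569 barcoded cells, 35.8 different barcodes are expected in PAC3, computed without resampling, against the 87 of PAC2. The most frequent barcode held 48.9% of PAC3 and 22.0% of PAC2, the 2 most frequent held 70.2% of PAC3 and 29.2% of PAC2, and the 10 most frequent held 91.6% of PAC3 and 61.0% of PAC2. The inverse Simpson index, the number of equally large lineages that would give the same evenness, was 3.41 in PAC3 and 13.9 in PAC2.

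Nearly all of PAC3 belonged to lineages also seen in PAC2. The conditions had 44 barcodes in common, 67.7% of the PAC3 list and 50.6% of the PAC2 list. They covered 98.5% (97.9 to 98.9) of barcoded PAC3 cells and 85.9% (82.8 to 88.7) of barcoded PAC2 cells. The 21 barcodes seen in PAC3 alone held 35 cells, 15 of them as single cells and none with more than 5. The 43 seen in PAC2 alone held 80 cells, 24 as single cells and none with more than 7. Since more PAC3 than PAC2 cells were barcoded, a barcode missing from PAC2 is the weaker statement.

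Of the 23 barcodes with at least 5 cells in both conditions or at least 1% of either, 7 had the higher share in PAC3 and 16 the lower. The interval of the PAC3 to PAC2 ratio of shares lay above 1 for 4, below 1 for 12, and included 1 for 7. The shares compared here also decided which barcodes were named, and 1% is fewer cells in PAC2 than in PAC3. These counts of direction therefore depend in part on the naming rule and do not describe all 108 barcodes of either condition. The lineage bc14-76-bc30-49517 held 1118 PAC3 cells, 48.9% (46.8 to 51.0), and 125 PAC2 cells, 22.0% (18.6 to 25.6), a ratio of 2.23 (1.85 to 2.70). The lineage bc14-4-bc30-67693 held 487 PAC3 cells, 21.3%, and 41 PAC2 cells, 7.21% (5.22 to 9.65), a ratio of 2.96 (2.15 to 4.17). These were the 2 largest gains in points.

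The other ratio intervals above 1 belonged to smaller lineages with 4 PAC2 cells each, named only through their PAC3 share. Their wide intervals overlap those of the larger lineages. The lineage bc14-13-bc30-29729 held 88 PAC3 cells, 3.85%, and 4 PAC2 cells, 0.703% (0.192 to 1.79), a ratio of 5.48 (2.06 to 20.5). It held 7 barcoded PAC1 cells, 0.391%, which lies inside the PAC2 interval. The lineage bc14-86-bc30-69871 held 48 PAC3 and 4 PAC2 cells, a ratio of 2.99 (1.09 to 11.4).

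Other lineages frequent in PAC2 were scarce in PAC3. The lineage bc14-18-bc30-67263 held 3 PAC3 cells, 0.131% (0.0271 to 0.383), and 37 PAC2 cells, 6.50% (4.62 to 8.85), a ratio of 0.020 (0.0040 to 0.064). The lineages bc14-71-bc30-60126 and bc14-74-bc30-34057 each held 1 PAC3 cell and 18 PAC2 cells, a ratio of 0.014 (0.00033 to 0.088). The lineage bc14-69-bc30-89668 held 0 of 2286 barcoded PAC3 cells, which allows up to 0.131%, and 7 PAC2 cells, 1.23% (0.496 to 2.52). The lineage bc14-6-bc30-93034 had a like share of both, with 165 PAC3 cells, 7.22% (6.19 to 8.36), and 39 PAC2 cells, 6.85% (4.92 to 9.25), a ratio of 1.05 (0.74 to 1.53).

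**Figure D4:**
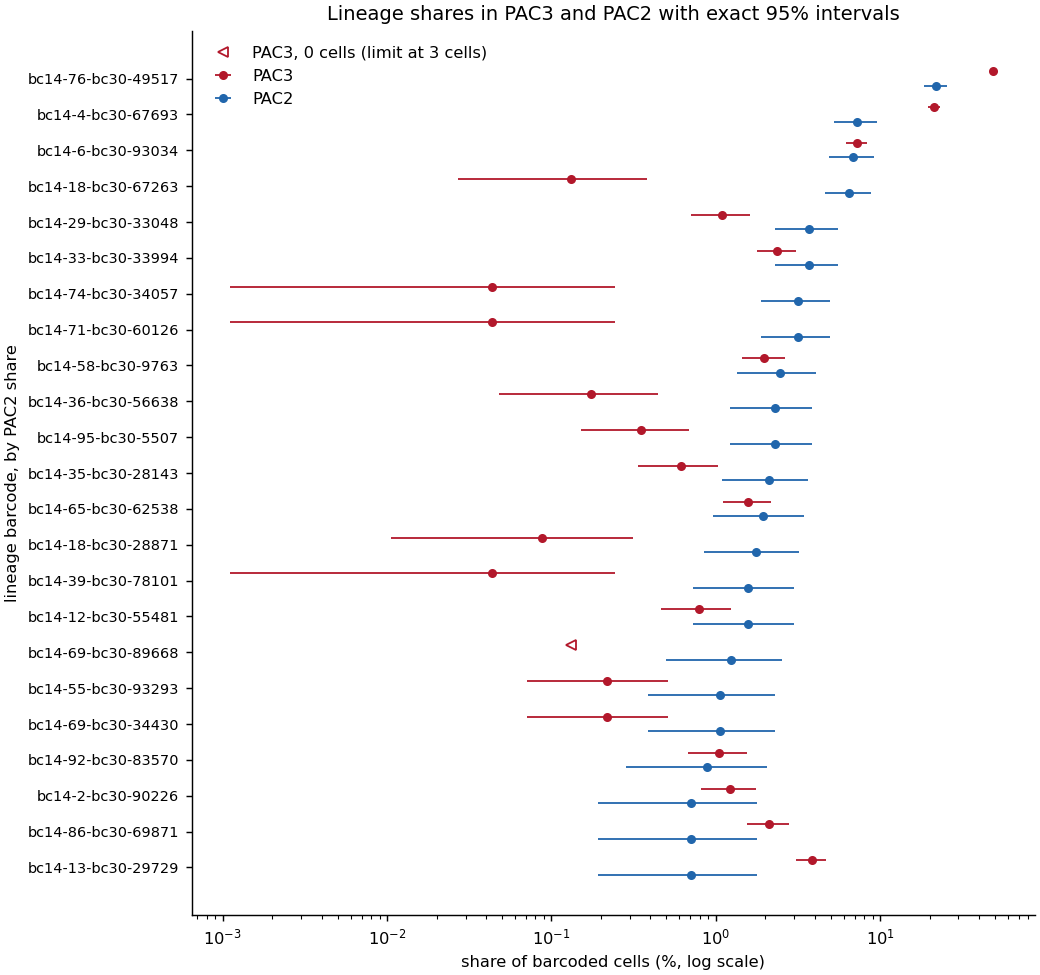
Share of barcoded cells (%, log scale) of the 23 named lineages, PAC3 above PAC2 for each, with exact 95% intervals; the open triangle marks 0 PAC3 cells at the limit of 3 cells. PAC3 shares spread from 0 cells to 48.9%, wider than the PAC2 shares, which run from 0.703% to 22.0%.

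Grouped by their leading cluster in PAC2, lineages with at least 5 PAC2 cells both gained and lost share under each of clusters 7 and 9. This grouping was chosen after the values were seen, and takes the 20 named lineages with at least 5 PAC2 cells by the cluster that held over 50% of their PAC2 cells. Cluster 7 led 7 of them, with 1 ratio interval above 1 and 5 below. Cluster 9 led 11, with 1 above and 6 below, and 2 had no such cluster. The cut left out bc14-13-bc30-29729 and bc14-86-bc30-69871, with 4 PAC2 cells each and ratio intervals above 1. In PAC3, cluster 9 held 98.9% and 97.9% of their cells, so the grouping does not cover all lineages that gained. The cluster 7 lineages held 56.6% of barcoded PAC3 cells and 38.3% of PAC2 cells, but without bc14-76-bc30-49517 they held 7.74% of PAC3 and 16.3% of PAC2. The cluster 9 lineages held 30.3% of PAC3 and 36.2% of PAC2, and without bc14-4-bc30-67693 they held 8.97% of PAC3 and 29.0% of PAC2. Both values without a lineage are still shares of all barcoded cells, including the lineage left out. A gain of that lineage therefore lowers them by arithmetic alone.

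The largest lineage led by cluster 7 in PAC2 had another leading cluster in PAC3. The cells of bc14-76-bc30-49517 lay in cluster 2 in 1034 of 1118 PAC3 cells, 92.5% (90.8 to 94.0), and in 43 of 125 PAC2 cells, 34.4% (26.1 to 43.4). In cluster 7 lay 11 of its PAC3 cells, 0.984% (0.492 to 1.75), and 73 of its PAC2 cells, 58.4% (49.2 to 67.1). Its median pseudotime was 21.0 in PAC3 and 16.6 in PAC2. Inside cluster 2, where PAC3 and PAC2 cells of this lineage could be set side by side, the medians were 21.1 in PAC3 and 20.9 in PAC2, and the mitochondrial medians 2.83% in PAC3 and 2.72% in PAC2. The lineage thus occupied another cluster in PAC3, and its cells inside cluster 2 were close in both measures.

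The lineage bc14-6-bc30-93034 also had another leading cluster. Cluster 8 held 99 of its 165 PAC3 cells, 60% (52.1 to 67.5), and 9 of its 39 PAC2 cells, 23.1% (11.1 to 39.3). Cluster 7 held 22 of those PAC2 cells, 56.4% (39.6 to 72.2), and none of the PAC3 cells, which allows up to 3 of 165. Of its other PAC3 cells, 24 were in cluster 6 and 23 in cluster 1. Its median pseudotime was 15.6 in PAC3 and 14.9 in PAC2. So both large lineages led by cluster 7 in PAC2 were nearly absent from it in PAC3, with cluster 2 leading in bc14-76-bc30-49517 and cluster 8 in bc14-6-bc30-93034.

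Most cells of the lineages led by cluster 9 in PAC2 were in cluster 9 in both conditions, 96.7% in PAC3 and 90.8% in PAC2 over the 11 lineages. The lineage bc14-4-bc30-67693 had 482 of 487 PAC3 cells in it, 99.0% (97.6 to 99.7), and 38 of 41 PAC2 cells, 92.7% (80.1 to 98.5). The lineage bc14-29-bc30-33048 was less concentrated, with 16 of 25 PAC3 cells in cluster 9, 64% (42.5 to 82.0), and 19 of 21 PAC2 cells, 90.5% (69.6 to 98.8). Inside cluster 9, 8 lineages had at least 5 cells in both conditions, and all 8 had the lower median pseudotime in PAC3, from 21.8 to 22.1 in PAC3 against 23.9 in PAC2 in each. The differences ran from -2.11 to -1.81, and PAC3 was the higher in 2.61% to 17.7% of pairs. The tied value of 23.881 was held by 86.6% of all PAC2 cells of cluster 9, so the common PAC2 median restates that tie. The 8 lineages are thus not 8 separate observations of the gap. All 8 also had the higher second UMAP coordinate and the lower mitochondrial median in PAC3, by -0.970 to -0.150 percentage points, and 7 had the lower UMI median. Of these 8 lineages, bc14-4-bc30-67693 had the higher share of barcoded cells in PAC3 and the other 7 had the lower. Among those 7, the ratio interval included 1 for bc14-33-bc30-33994, bc14-58-bc30-9763, bc14-65-bc30-62538 and bc14-12-bc30-55481. The 8 lineages were captured in the same library and are not replicates of the treatment.

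**Figure D5:**
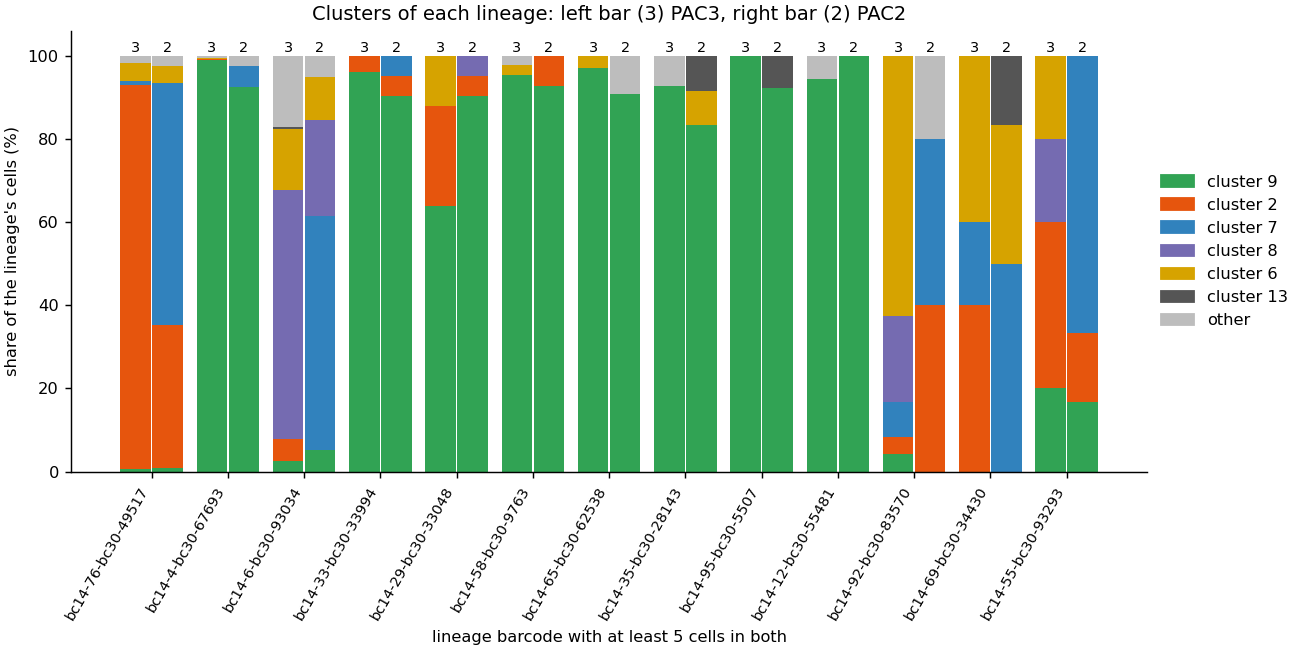
Share of cells (%) by cluster in the 13 lineages with at least 5 cells in both conditions, with the PAC3 bar (marked 3) left of the PAC2 bar (marked 2). Cluster 9 fills most of both bars in 8 lineages, while bc14-76-bc30-49517 shows 92.5% in cluster 2 in PAC3 and 58.4% in cluster 7 in PAC2.

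With the lineage mix held fixed, the exchange of clusters 7 and 2 remained, and cluster 9 was level. The 13 lineages with at least 5 cells in both held 87.7% of barcoded PAC3 cells and 56.8% of barcoded PAC2 cells. Weighted by their PAC2 mix, cluster 2 held 39.9% in PAC3 and 15.2% in PAC2, cluster 7 held 0.881% in PAC3 and 33.1% in PAC2, and cluster 9 held 41.5% in both. With these weights, the cluster 2 difference of 37.6 points in these lineages split into 24.7 within lineages and 12.9 in the change of mix. Of the cluster 7 difference of -32.4 points, -32.2 lay within lineages. The cluster 9 difference of -7.65 points lay almost wholly in the mix. The split depends on the weights. With the PAC3 mix, 32.7 points for cluster 2, -38.6 for cluster 7 and 1.27 for cluster 9 lay within lineages.

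One lineage carried much of the cluster 2 value. Without bc14-76-bc30-49517, the other 12 lineages had 6.63% in cluster 2 in PAC3 and 3.03% in PAC2, a difference of 3.60 points whose interval includes 0 (-2.61 to 8.25). In cluster 7 they had 0.816% in PAC3 and 17.2% in PAC2. Weighted pseudotime over the 13 lineages was 20.6 in PAC3 and 19.5 in PAC2, a difference of 1.13. Without bc14-76-bc30-49517 it was 20.3 in PAC3 and 21.3 in PAC2, a difference of -0.91. The direction of the pseudotime difference thus rested on this lineage, whereas cluster 7 was lower in PAC3 with and without it.

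A pair of 1 PAC3 and 1 PAC2 cell with the same barcode lay in the same cluster in 39.9% of pairs, and in 17.9% of pairs with different barcodes. Without bc14-76-bc30-49517, the pairs with the same barcode gave 73.3%. The pairs with different barcodes were not recomputed without that lineage, so 17.9% is no baseline for this value. Averaged over the 13 lineages, the share of same-barcode pairs in the same cluster was 58.9%.

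Eribulin, which acts on microtubules in another way, was given at 500 nM in each round in its own library. In the 11 lineages with at least 5 cells in both ERI3 and ERI2, weighted by the ERI2 mix, cluster 2 held 58.8% of ERI3 and 2.29% of ERI2, cluster 7 held 12.3% of ERI3 and 92.7% of ERI2, and cluster 9 held no cells. Under both drugs, cluster 2 was thus higher and cluster 7 lower after 3 rounds than after 2 within shared lineages. For paclitaxel, the cluster 2 difference without bc14-76-bc30-49517 was 3.60 points, with an interval that includes 0 (-2.61 to 8.25). The same lineage held 37.9% of barcoded ERI3 and 27.4% of barcoded ERI2 cells, and the eribulin values were not recomputed without it. The difference between the drugs was not tested, and they were captured in different libraries.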

How the data were processed

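The authors' cell table was joined to its UMAP coordinates and to the deposited barcode sequence lists. According to the design text of the series and the submitters' processing notes, Cell Ranger 4.0.0 aligned run 2 to mm10 and counted it, Seurat 3.1.4 gave the clusters and the UMAP, and Monocle3 0.2.1 gave pseudotime over the merged samples. Counts were deposited raw: UMIs, genes, barcode counts and detected barcodes of each cell. Percent columns, as deposited, hold the mitochondrial and the ribosomal part of each cell's UMIs. S, G2M and pseudotime are deposited score columns on arbitrary scales. Cluster numbers, condition names and barcode calls are the authors' own, and the latest of 3 successive barcode calls was used. Where the first revision also called a barcode, it gave the same one in 2075 of 2075 PAC3 and 466 of 466 PAC2 cells.

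The stated filter (under 200 genes, or over 50% mitochondrial or ribosomal) had left 45 PAC3 and 33 PAC2 cells in the table, all of cluster 13, and they were kept. Doublets were handled through the deposited calls only. Named lineages are those with at least 5 cells in both conditions or at least 1% of barcoded cells of either. Shares have exact Clopper-Pearson 95% intervals, and a share of 0 has the limit that 3 cells would make. Intervals of differences of shares combine the exact limits of both shares by Newcombe's square-and-add rule. The depth window runs from the higher 10th percentile of UMIs to the lower 90th percentile. Thinning cells to 1 depth needs counts per gene, which were not analysed here. Expected barcodes in equal draws come from the hypergeometric formula. The scripts were tested on simulated data and used Python 3.11.15, pandas 2.3.3, scipy 1.17.1 and scikit-learn 1.9.0. The conditions, lineages and measures were chosen with earlier results of these data known. The clusters were made on all libraries together, so they also reflect cells outside the comparison.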

Additional observations from a re-analysis of the deposited data

How the results depend on the processing

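Each of the 17 results was recomputed under the alternatives, 109 values in all. Of these, 77 stayed within the counting interval of the reported value (for the count in equal draws, within 1.5 times of it). Another 29 moved beyond it, and 3 were counted as reversed. For the cluster overlap and the pair percentage, the interval was an approximation that treated the value as a share of the 848 PAC2 cells. A reversal was counted only where the interval of the reported value excluded equality of the conditions. Other changes of sign were left among the 77 or the 29. Without the most frequent lineage, the cluster 9 share difference went from -1.30 to 20.7 and was counted as moved. The S share difference there went from -1.15 to 0.137 and was counted as within its interval. All differences are PAC3 minus PAC2, and shares are in percentage points. The original barcode call, leaving out cells with several barcodes and leaving out the most frequent lineage were added after the data were seen.

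Median pseudotime differed by 3.23 with the stated filter applied, by 3.24 without cluster 13, by 1.04 in the depth window and by 0.062 with clusters weighted equally. PAC3 was the higher in 52.1% of pairs in the window and in 51.7% with clusters weighted equally. In the window, the cluster 9 difference was -6.79, median UMIs differed by -1711, and cluster 2 within lineages differed by 19.4. The share with 1 called barcode differed by 19.8 with the first revision of the call, by 23.5 with the original call and, by construction, by 0 among cells with exactly 1 detected barcode. The share with a barcode seen on both sides differed by 20.7, 17.7 and 20.6 under these calls, and by 22.6 where 2 cells in each were required. Cluster 2 differed by 41.3 without cells of several barcodes. With a phase threshold of 0.1, the S share differed by -2.81 (-5.21 to -0.635), an interval that excludes 0.

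Within lineages, equal weights gave 7.88 for cluster 2, -19.4 for cluster 7 and 0.090 for pseudotime, and the PAC3 mix gave 32.7, -38.6 and 1.88. Leaving out bc14-76-bc30-49517 gave 3.60 for cluster 2, -16.4 for cluster 7 and a reversed pseudotime difference of -0.91. Over all other barcoded cells, leaving it out gave 4.39 for cluster 2, -31.4 for cluster 7, 20.7 for cluster 9 and a cluster overlap of 64.6%. The median pseudotime difference then reversed to -0.038, and PAC3 was the higher in 47.8% of pairs. Cluster 7 shares were lower and cluster 2 shares higher in PAC3 in value under every alternative run. For cluster 2 within lineages, the counting interval included 0 with equal weights (-1.22 to 15.2) and without bc14-76-bc30-49517 (-2.61 to 8.25).

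No paired analysis was possible because each condition is 1 hashed pool. Depth limits the rare lineages: 3 cells correspond to 0.131% of barcoded PAC3 and 0.527% of barcoded PAC2 cells.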

Other observations

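Cells without a called barcode differed between the conditions in where they lay. Of the cells called Negative, 49.7% (44.1 to 55.3) of 326 in PAC3 and 5.85% (2.84 to 10.5) of 171 in PAC2 were in cluster 2, and 0.920% in PAC3 and 33.3% (26.3 to 40.9) in PAC2 were in cluster 7. The exchange of these clusters was thus also present in cells that entered no lineage value. The lineage of these cells is not known, so they are not shown to be separate from bc14-76-bc30-49517. That lineage made up 93.2% of the barcoded cluster 2 cells in PAC3 and 82.7% in PAC2. In cluster 7 it made up 52.4% of the barcoded cells in PAC3 and 33.8% in PAC2. Whether the Negative cells belong to it was not tested. Of the cells called Doublet or Multiplet, 69.4% (62.2 to 76.1) of 180 in PAC3 and 36.1% (27.1 to 45.9) of 108 in PAC2 were in cluster 9, with a median depth of 16732 UMIs in PAC3 and 23870 in PAC2.

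The pseudotime value of 23.881 was also held by 47 of 2928 PAC1 cells, by 21 of 1257 ERI2 cells, by 7 ERI1 cells, by 2 of 3076 ERI3 cells, by 3 cells or nuclei after 4 rounds of eribulin and by 177 untreated cells or nuclei. In the lineage bc14-76-bc30-49517, S made up 19.9% of PAC3 and 25.6% of PAC2 cells, and in bc14-4-bc30-67693 15.6% of PAC3 and 19.5% of PAC2 cells. The lineage bc14-6-bc30-93034 went the other way, with 23.6% of PAC3 and 20.5% of PAC2 cells. Across the 13 lineages with at least 5 cells in both conditions, the mitochondrial median was lower in PAC3 in 11 and the UMI median in 10. The S share was lower in PAC3 in 8 and higher in 3, with few cells in several of these lineages.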
